A study of Mus musculus with 3 samples.

Results

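Ecm1 encodes extracellular matrix protein 1, a secreted glycoprotein, and its transcript was followed across 3 culture media of the embryonic mouse kidney. The gene was represented by the probe set annotated to Ecm1 alone. That was 1 probe set, and it made Ecm1 1 of 19938 genes with a single symbol on the array. The gene was chosen for its values on these arrays, so its levels and ranks are a description and carry no test. Kidneys were taken from C57BL/6 mouse embryos at embryonic day 11.5 and kept on Transwell filters for 48 h. The 3 groups, all of that strain and age and with no allele or transgene named in the labels, differed in medium. It was DMEM holding 10% fetal bovine serum (called serum here), the same DMEM left serum-free, or serum-free DMEM plus retinoic acid. Neither the retinoic acid dose nor the number of kidneys behind each RNA is stated in the labels. Each medium was measured on 1 Affymetrix Mouse Gene 1.0 ST array, so no value has an error and precision is limited by the number of arrays. The series title gives its aim as finding genes of the developing kidney that respond to retinoic acid.

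Retinoic acid is made from vitamin A in a pair of steps. Retinol is oxidised to retinaldehyde, and retinaldehyde is oxidised to retinoic acid by the ALDH1A enzymes. It acts by binding nuclear receptors (RAR, paired with RXR) that sit on DNA at repeats of a short core motif. In the embryonic kidney the stroma, the loose tissue around the epithelium, makes retinoic acid with ALDH1A2, and signalling through stromal receptors is needed for normal branching of the ureteric bud, the epithelial tube that becomes the collecting duct. ECM1 is known from mouse work as a stromal protein downstream of this signal that helps keep the receptor gene Ret in the bud tips. It is best known in skin, where loss of human ECM1 causes lipoid proteinosis. These arrays measured whole kidneys, so they do not show which cells made the transcript, and more cells of a type cannot be told apart from more RNA per cell.

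Start-site windows are shown to see whether the letters of a retinoic acid receptor site lie beside the Ecm1 start. Windows run from 250 bases before to 50 bases after a RefSeq start (build GRCm38.p6). The Ecm1 window lies at chr3:95739520-95739819, minus strand, that of Rarb at chr14:16575427-16575726, minus strand, that of Cyp26a1 at chr19:37697558-37697857, plus strand, and that of Tnfsf13b (the first of 2 windows) at chr8:10006217-10006516, plus strand. Capitals mark the core motifs of retinoic acid receptor sites, which were AGGTCA and AGTTCA and GGGTCA and GGTTCA, and the AP-1 letters TGAGTCA or TGACTCA, all searched on both strands. On the opposite strand, AGTTCA reads TGAACT, and the AP-1 forms are each other read from the opposite strand, so a place that holds them was counted once. Rarb and Cyp26a1 are shown as known retinoic acid targets. Tnfsf13b is shown because its differences between arrays were nearest to those of Ecm1 among the genes compared below.
Ecm1: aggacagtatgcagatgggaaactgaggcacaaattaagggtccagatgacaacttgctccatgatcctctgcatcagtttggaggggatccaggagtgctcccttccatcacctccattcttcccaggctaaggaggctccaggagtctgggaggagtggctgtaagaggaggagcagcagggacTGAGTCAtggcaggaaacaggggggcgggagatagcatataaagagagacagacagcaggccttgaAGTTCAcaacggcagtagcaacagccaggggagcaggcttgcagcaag
Rarb: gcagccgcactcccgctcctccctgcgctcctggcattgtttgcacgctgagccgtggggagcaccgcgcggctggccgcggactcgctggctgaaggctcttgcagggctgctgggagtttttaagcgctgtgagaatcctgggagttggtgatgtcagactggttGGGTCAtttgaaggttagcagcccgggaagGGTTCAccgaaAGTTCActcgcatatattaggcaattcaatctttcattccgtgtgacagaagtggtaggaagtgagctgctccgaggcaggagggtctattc
Cyp26a1: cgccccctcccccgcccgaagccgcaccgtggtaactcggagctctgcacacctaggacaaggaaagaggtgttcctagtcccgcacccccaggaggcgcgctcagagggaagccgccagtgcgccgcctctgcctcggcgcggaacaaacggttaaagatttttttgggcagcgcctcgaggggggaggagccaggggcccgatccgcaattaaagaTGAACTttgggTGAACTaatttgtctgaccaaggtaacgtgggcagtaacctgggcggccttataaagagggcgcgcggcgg
Tnfsf13b: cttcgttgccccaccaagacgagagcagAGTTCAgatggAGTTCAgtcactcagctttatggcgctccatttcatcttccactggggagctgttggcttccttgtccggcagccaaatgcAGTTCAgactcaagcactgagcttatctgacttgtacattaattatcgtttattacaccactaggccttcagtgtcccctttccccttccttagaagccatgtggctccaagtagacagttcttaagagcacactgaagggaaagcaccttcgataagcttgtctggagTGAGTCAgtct

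The Ecm1 window held 1 core motif, AGTTCA, which began 2 bases after the start. It held 0 direct repeats of the core motifs at spacings of 1, 2 or 5 bases. It also held 1 AP-1 match, TGAGTCA, ending 57 bases before the start, and 1 TATAAA, a motif looked for after the sequence was seen. Over all 32851 windows of the table, 43.7% held a core motif, 5.2% an AP-1 match and 13.6% a TATAAA, so a single core motif is common. Direct repeats were rarer, in 0.588% of windows, and those spaced by 5 bases were in 0.0974%. Rarb held one of these, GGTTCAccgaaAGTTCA, ending 36 bases before the start. Cyp26a1 held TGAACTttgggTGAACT, a repeat on the opposite strand, and Tnfsf13b held AGTTCAgatggAGTTCA, ending 205 bases before the start. Dhrs3, with 3 windows, Stra6, with 4, and Cyp26b1, with 1, held 0 direct repeats. So did the windows of Tgm5, S1pr3, Mpp6, Gabra3 and Tbx18, whose profiles are set beside that of Ecm1 for their likeness. The other Tnfsf13b window also held 0. Mc2r, Csn3, Calb1, Krt19 and Plat, further genes set beside Ecm1 for likeness, had no window and were not searched. A match is a run of letters and not a site shown to be used, and its absence from these windows says nothing of sequence elsewhere.

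Ecm1 was lowest without serum, intermediate in serum and highest with retinoic acid. Its intensity was 1021 with serum, 144 without it and 5857 with retinoic acid, which is 10.00, 7.17 and 12.52 on the log2 scale. The serum-free value was 14.1% of the serum value and 2.46% of the retinoic acid value. It lay 0.05 above the level floor of 7.12, the median of all gene values, so the gene had little signal above that floor without serum. The other 2 arrays lay 2.87 and 5.39 above it.

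With no replicate arrays, the only yardstick of technical spread was how far probe sets of one gene differed from each other. Among genes with several probe sets at or above the floor, the 95th percentile of that disagreement was 0.28 for both retinoic acid minus serum-free and serum-free minus serum, and 0.33 for retinoic acid minus serum. It covers neither the spread between embryos nor that between RNA preparations.

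Against serum-free medium alone, retinoic acid gave a level of Ecm1 that was higher by 5.34, or 40.6-fold. A gene was counted as called where it differed at least 2-fold and its higher value reached the floor. Of 10111 genes at or above the floor in this comparison, 106 (1.05%) were called higher, and Ecm1 ranked 1 among them, as it did among all 19938 genes. The next gene, Tnfsf13b, which encodes the B cell cytokine BAFF, was higher by 3.82, with a serum-free value of 5.83 that lies under the floor. Cyp26b1, an enzyme that breaks down retinoic acid, followed at 3.65, then Dhrs3, which reduces retinaldehyde back to retinol, at 3.32. The hormone gene Sst (somatostatin) was at 3.22 and the receptor gene Rarb at 2.95.

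**Figure D1:**
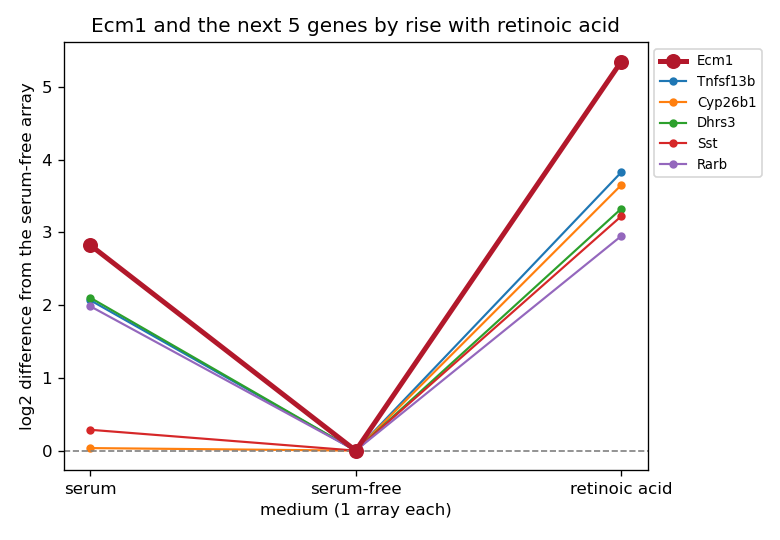
Log2 difference of each gene from its own serum-free value (vertical axis) on the 3 arrays (horizontal axis), for Ecm1 and the next 5 genes by difference with retinoic acid; each point is 1 array. Ecm1 is at 2.82 in serum and 5.34 with retinoic acid, while Cyp26b1 and Sst are near 0 in serum.

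Leaving out serum gave the opposite direction. Ecm1 was 7.08-fold lower in serum-free medium than in serum (-2.82), and it ranked 1 from the lowest of 10156 genes at or above the floor. In that comparison 71 genes (0.699%) were called lower. The lead was narrow here. Cnn1, a smooth muscle gene, was lower by nearly as much (-2.75), a gap of 0.07 that lies within the probe set disagreement, so the order of these neighbours is not resolved. Slc7a3, an amino acid transporter gene, was at -2.43, Car4, a carbonic anhydrase gene, at -2.38, Slco4c1, an organic anion transporter gene, at -2.31 and the smooth muscle actin gene Actg2 at -2.18. These 5 genes lay under the floor both without serum and with retinoic acid, so none could be called in that comparison. Cnn1 differed by -1.02 and Actg2 by -1.40. Slc7a3 was at 6.40 without serum and 6.34 with retinoic acid, Car4 at 6.76 and 6.97, and Slco4c1 at 5.45 and 6.31.

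With retinoic acid in place of serum, Ecm1 stood above its serum level, higher by 2.52 or 5.74-fold. It ranked 6 of 10169 genes at or above the floor, among 106 (1.04%) called higher. Cyp26b1 was first at 3.61, followed by Npffr2, a neuropeptide receptor gene, at 3.34, Sst at 2.93, the lectin receptor gene Clec7a at 2.73 and the chemokine gene Ccl6 at 2.52. Ccl6 led Ecm1 by less than 0.01. Timd4, a phagocyte receptor gene, was at 2.41 and Lrrc7 at 2.21. From Clec7a down to Lrrc7 every gene lay within the probe set disagreement of Ecm1, so its place among these neighbours is not resolved.

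**Figure D2:**
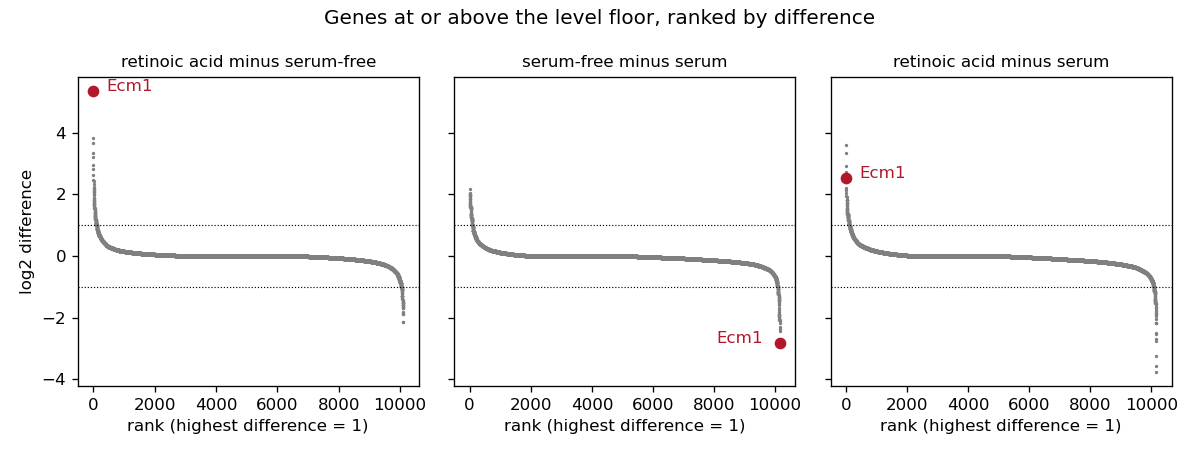
Log2 difference (vertical axis) of every gene at or above the level floor against its rank (horizontal axis) in the 3 comparisons, with Ecm1 in red and dotted lines at a 2-fold difference. Ecm1 is at the top end in the first panel (5.34), at the bottom end in the second (-2.82) and sixth from the top in the third (2.52).

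The comparisons share arrays, so they are not independent of each other, and the first pair both use the serum-free array. The difference between retinoic acid and serum does not use that array. The genes whose pattern was most like that of Ecm1 were found over the 3 arrays by a pair of measures. Gene models with provisional symbols (of the Gm, LOC or Rik kind) were left out of both. The first was the distance between the pairs of log2 differences (retinoic acid minus serum-free and serum-free minus serum), and its 8 nearest of 18709 genes were Tnfsf13b at a distance of 1.70, Dhrs3 at 2.15, Rarb at 2.54, Tgm5 at 3.04, Mc2r at 3.11, Csn3 at 3.13, Cyp26b1 at 3.26 and Calb1 at 3.28. None of these 8 lay close to Ecm1, since its differences were larger than theirs.

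Tnfsf13b was at 7.90 with serum, 5.83 without it, under the floor, and 9.65 with retinoic acid. Dhrs3 was at 10.83, 8.73 and 12.05 in the same order, and Rarb at 10.41, 8.43 and 11.37. Like Ecm1, these 3 genes were lowest without serum and highest with retinoic acid. Tgm5, a transglutaminase gene, was at 7.65, 5.78 and 8.24, and the casein gene Csn3 at 6.82, 5.54 and 8.16. The serum-free value of Tgm5 and the serum and serum-free values of Csn3 lay under the floor, so their distances from Ecm1 rest in part on such values. Calb1, which encodes the calcium-binding protein calbindin of the ureteric epithelium, was at 11.67, 9.73 and 11.91. Its values in serum and with retinoic acid differed by 0.24, where those of Ecm1 differed by 2.52. Mc2r, the receptor gene for the hormone ACTH, stayed under the floor on every array, with a highest value of 7.07. Cyp26b1 was unlike Ecm1 in that its serum and serum-free values, 6.63 and 6.60, hardly differed and both lay under the floor.

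The second measure compared shape alone, as the cosine between profiles centred on their own means, among 338 genes with a range of at least 1 and a highest value at or above the floor. The 8 nearest were S1pr3, Krt19, Gabra3, Plat, Tnfsf13b, Stra6, Mpp6 and Tbx18, all with a cosine of at least 0.999. With 3 points a profile has little freedom, so such cosines are reached easily. On the log2 scale the difference with retinoic acid was 1.89 times the size of that without serum for Ecm1, and between 1.79 and 1.99 times for these 8. Tnfsf13b was near by both measures, with a ratio of 1.85. The others differed far less between arrays. Stra6, a receptor gene for vitamin A uptake, was at 9.94 with serum, 9.14 without it and 10.70 with retinoic acid. Tbx18, a transcription factor gene of the ureteric mesenchyme, was at 9.43, 8.75 and 9.97. The GABA receptor subunit gene Gabra3 was at 8.45, 7.38 and 9.37. S1pr3, a receptor gene for the lipid sphingosine 1-phosphate, differed by 1.08 with retinoic acid. The keratin gene Krt19 differed by 1.40, Plat, which encodes a plasminogen activator, by 1.26, and the scaffold gene Mpp6 by 1.55.

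**Figure D3:**
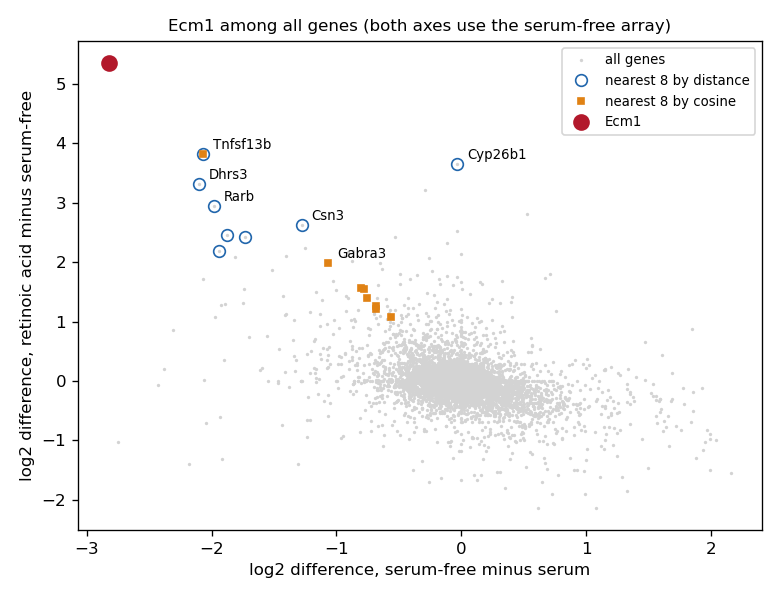
Each gene's log2 difference for serum-free minus serum (horizontal axis) against that for retinoic acid minus serum-free (vertical axis), with Ecm1, its 8 nearest genes by distance and its 8 nearest by cosine marked. Both axes use the serum-free array. Ecm1 lies at -2.82 and 5.34. The nearest gene, with gene models of provisional symbol left out, was Tnfsf13b at -2.07 and 3.82.

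Genes beside Ecm1 on the chromosome were set next to it, 5 protein-coding genes on each side in the RefSeq gene table (GRCm38.p6), of which 10 of 10 had a probe set. Adamtsl4, the next gene on one side, encodes an ADAMTS-like matrix protein that binds microfibrils. It was at 7.01 with serum, 6.61 without it and 8.33 with retinoic acid, so it was 3.30-fold higher with retinoic acid than without (1.72) and ranked 33 in that comparison. Against serum it was 2.48-fold higher. Its serum and serum-free values both lay under the floor. In the RefSeq table its span does not overlap that of Ecm1, and both genes are read from the minus strand.

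The remaining neighbours differed little with retinoic acid. Tars2, a tRNA synthetase gene on the other side of Ecm1, was at 8.71, 8.64 and 8.67 in serum, serum-free medium and retinoic acid. The survival gene Mcl1 was at 10.17, 10.07 and 10.23. Ensa, Golph3l, Hormad1, Rprd2 and Prpf3 differed by -0.07 to 0.16 in that comparison, and Mrps21, a mitochondrial ribosome gene, by -0.25. Ciart, a circadian repressor gene, differed by -0.83 without serum and by 0 with retinoic acid, with all values under the floor. Of the 10 neighbours, Adamtsl4 was the 1 gene called in any of the 3 comparisons. It was called higher with retinoic acid against serum-free medium and against serum. Of genes at or above the floor, 1.05% and 1.04% were called higher there. Hormad1 and Ciart lay under the floor on every array and could not be called.

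**Figure D4:**
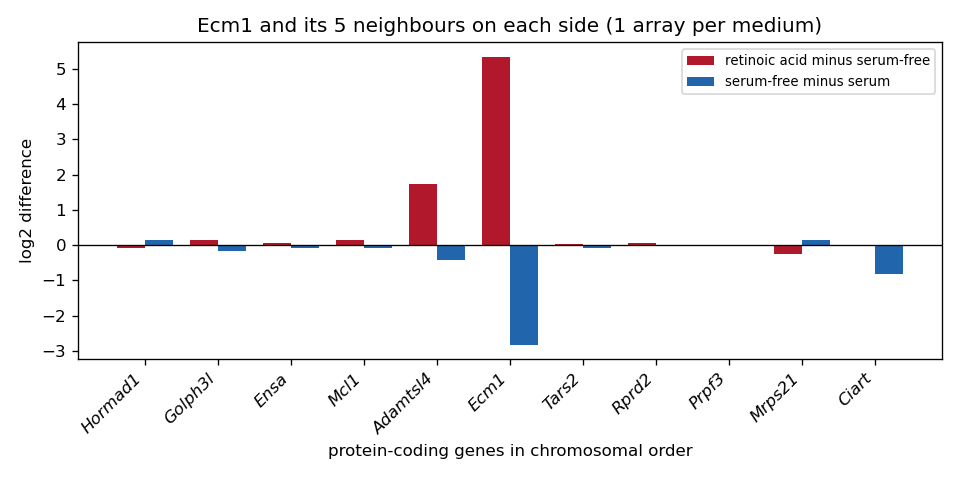
Log2 difference (vertical axis) of Ecm1 and the 5 protein-coding genes on each side of it in chromosomal order (horizontal axis), for retinoic acid minus serum-free (red) and serum-free minus serum (blue); each bar is a difference between 2 single arrays. Ecm1 reaches 5.34 and Adamtsl4 1.72, and every other red bar lies between -0.25 and 0.16.

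The retinoid genes were taken by role, from lists chosen with results of these data known. Over all genes at or above the floor, 1.05% were called higher and 0.613% lower with retinoic acid against serum-free medium, and 0.876% higher and 0.699% lower in serum-free medium against serum. List counts here and below are out of all measured members, some of them under the floor and so not open to a call. In lists this small a count of 0 or 1 is no result about the list, because a single gene is a large share of it. Of 13 measured genes for synthesis, uptake and storage, 2 were called higher with retinoic acid than without, Dhrs3 and Stra6, and 0 lower. The median difference was 0, the same as over all genes. The synthesis gene Aldh1a2 was at 11.37 with serum, 11.50 without it and 10.54 with retinoic acid, lowest where Ecm1 was highest. Rdh10, which makes retinaldehyde, was at 11.07, 11.30 and 10.41. Aldh1a1 was at 8.41, 7.33 and 8.29, so it was lower without serum (-1.08), as Ecm1 was, and Aldh1a3 was at 8.49, 8.71 and 8.58. The binding protein genes Crabp1 and Crabp2 differed by -0.88 and -0.49 with retinoic acid. Rdh11 and Rdh14 differed by 0.00 and 0.10. Lrat, Rbp4 and Bco1 stayed under the floor on all 3 arrays.

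Of the 3 breakdown enzymes, Cyp26b1 was called higher, while Cyp26a1 and Cyp26c1 stayed under the floor on every array. Cyp26a1 had the same order of arrays as Ecm1, with a difference of 1.15 with retinoic acid and -0.58 without serum, at a level too low to count (at most 5.57). Of the 6 receptor genes, 1 was called higher, Rarb. Rarg was at 8.36, 7.98 and 8.85, also lowest without serum and highest with retinoic acid, but by less than 2-fold. Rara, Rxra and Rxrb differed by at most 0.08 in size in each comparison, and Rxrg lay under the floor throughout.

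Proteins known to bind ECM1 include matrix, basement membrane and protease partners. Of 12 measured binding partner genes, 9 were at or above the floor, and 0 were called in either direction with retinoic acid. Of all genes at or above the floor, 1.05% were called higher and 0.613% lower. The median difference of the partner genes was 0. The values nearest to a call were those of Efemp1, which encodes a fibulin, at 9.26 with serum, 8.89 without it and 9.58 with retinoic acid, and of Hspg2, the basement membrane proteoglycan perlecan, at 8.65, 8.77 and 9.43. Fbln1, another fibulin gene, differed by 0.19 and the fibronectin gene Fn1 by 0. Mmp9, a protease that ECM1 inhibits, was at 6.41, 6.98 and 7.27. The retinoic acid value of Hspg2 was 0.78 above that in serum. That of Mmp9 was 0.86 above, but the serum and serum-free values of Mmp9 lay under the floor. The growth factor gene Grn was at 11.01, 11.73 and 11.41, highest where Ecm1 was lowest. The collagen IV genes Col4a1 and Col4a2 differed by -0.06 and 0, and the scramblase gene Plscr1 by 0.10. The laminin genes Lama3 and Lamb3 and the interleukin receptor gene Il2rb stayed under the floor, each with the same value on all 3 arrays. Median polish, the step that sums up probes, often returns exactly equal values, so these are no measure of equal expression.

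ECM1 is also known to hold back the release of active TGF-beta from its latent store. Among 12 genes of TGF-beta and its activation, 1 was called higher with retinoic acid than in serum-free medium and 0 lower. Of genes at or above the floor, 1.05% and 0.613% were. A single call in a list of this size is no result about the list. The called gene was the ligand gene Tgfb3, at 10.22 with serum, 9.54 without it and 10.94 with retinoic acid, in the same order as Ecm1. The other ligand genes differed by 0.60 (Tgfb2) and -0.37 (Tgfb1). Thbs1, which encodes an activator of latent TGF-beta, was at 10.46, 9.74 and 9.32, and it was called lower with retinoic acid than in serum (-1.15), where 0.816% of all genes were.

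Ecm1 was then set beside 59 measured genes of matrix glycoproteins. With retinoic acid against serum-free medium, 43 of these reached the floor, and 2 were called higher and 3 lower. Of all genes at or above the floor, 1.05% and 0.613% were. The median difference was 0 over the 59, as over all genes, and 0.04 over the 43. Spon2, a secreted spondin-family gene, was highest at 2.17 (7.98 against 5.81, which lies under the floor), and Edil3, an integrin-binding matrix gene, was at 1.67 (9.88 against 8.21). Postn (periostin) was at -1.20 and Tnc (tenascin C) at -1.10. Without serum 0 were called higher, where 0.876% of all genes were, and 2 were called lower, namely Fbln5, an elastic fibre gene, at -1.16 and Thbs2 at -1.07. Ecm2, which has a name like that of Ecm1 and whose sequence was not compared with it, belonged to this list. It was under the floor on every array.

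Among 23 measured genes of the renal stroma, 1 was called higher with retinoic acid and 0 lower. Of genes at or above the floor, 1.05% and 0.613% were. The median difference of the list was 0. The called gene was the transcription factor gene Hic1, at 9.54 with serum, 9.08 without it and 10.37 with retinoic acid. Lox, which encodes a collagen cross-linking enzyme, was at 10.01, 8.57 and 7.83, so it was lowest where Ecm1 was highest. It was the 1 gene of the list called lower without serum (-1.44), and also the 1 called lower with retinoic acid than in serum (-2.18). Of genes at or above the floor, 0.699% and 0.816% were. Fibin was at 7.08, 6.66 and 5.68, under the floor on every array. Foxd1, the marker of stromal progenitors, was at 9.66, 9.43 and 9.51, and Tcf21, a stromal transcription factor gene, was at 10.72, 10.41 and 10.86. The receptor gene Pdgfra was at 10.31, 10.35 and 10.43, and Pdgfrb at 10.97, 11.06 and 10.38. The summed intensity of the list was 14.99, 14.96 and 14.89 on the log2 scale, with 1 gene under the floor on every array.

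Ret, the tip receptor gene that ECM1 is known to confine, was at 9.58 with serum, 8.42 without it and 9.92 with retinoic acid. Its order over the arrays was that of Ecm1, but it was 2.23-fold lower without serum and 2.83-fold higher with retinoic acid. Of 17 measured genes of the ureteric tip and RET signalling, 3 were called higher with retinoic acid (Ret, Adamts18 and Lhx1) and 0 lower. Of genes at or above the floor, 1.05% and 0.613% were. Without serum 2 were called lower (Lhx1, which is also on the early nephron list, and Ret), where 0.699% of all genes were. The median difference was 0.33 with retinoic acid and -0.52 without serum. The ligand gene Gdnf was at 9.41, 9.31 and 9.15. Whole-kidney values hold no position, so they do not show where Ret was expressed.

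**Figure D5:**
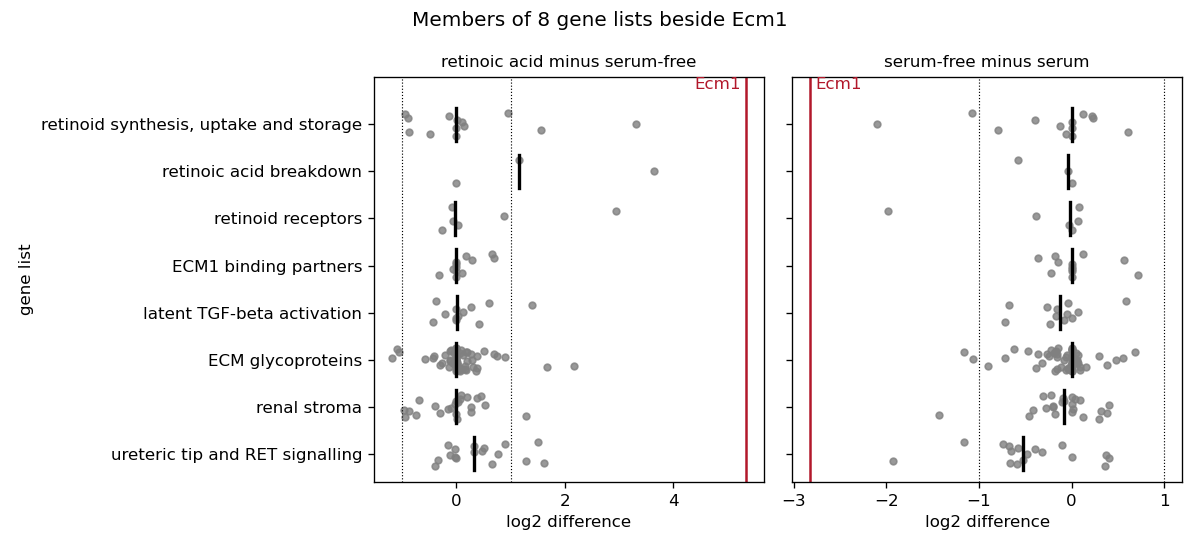
Log2 differences (horizontal axes) of the measured members of 8 gene lists (rows), for retinoic acid minus serum-free (left) and serum-free minus serum (right). Each grey point is a gene, each black bar the list's median, dotted lines mark 2-fold, and the red line is Ecm1 (5.34 and -2.82). Ecm1 was first by size among all genes in both comparisons, so no list member could lie beyond the red line.

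The TFAP2 transcription factors include one, TFAP2C, that is known to act on human ECM1 in cultured cells. Of 5 measured genes of the family, 2 were called lower with retinoic acid and 0 higher. Of genes at or above the floor, 0.613% and 1.05% were. Tfap2b was at 8.51 with serum, 8.25 without it and 6.56 with retinoic acid, and Tfap2a at 8.73, 8.89 and 7.87. These were the called genes. Tfap2c, Tfap2d and Tfap2e stayed under the floor.

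Markers of kidney were present, with 13 of 13 measured cap mesenchyme genes and 17 of 17 tip genes at or above the floor on at least 1 array, against 0 of 7 epidermis genes. Markers of several cell types differed between the same arrays as Ecm1, and their part in its differences was not tested. Of all genes, 0.876% were called higher and 0.699% lower without serum, and 1.05% higher with retinoic acid. Of 18 macrophage genes, 12 were called higher without serum, and their summed log2 level was 12.06 with serum, 13.57 without it and 13.09 with retinoic acid, with 5 genes under the floor throughout. Of 10 smooth muscle genes, 5 were called lower without serum, with summed levels of 13.55, 12.44 and 12.06 and 2 genes under the floor throughout. Of 12 early nephron genes, 7 were called lower without serum and 4 higher with retinoic acid, with summed levels of 13.26, 12.59 and 12.79. The early nephron list and Ecm1 were thus both lowest without serum. With retinoic acid the early nephron sum stayed below its serum level, whereas Ecm1 was above its own. The summed levels of the ureteric tip list (14.03, 13.75 and 14.04) and the ureteric trunk list (13.13, 12.56 and 13.06) were also lowest without serum. That of the endothelium list (13.06, 13.51 and 13.28) was highest there. The embryos' sex is not given in the labels, and the Y-linked genes Eif2s3y (8.38, 7.46 and 8.64), Kdm5d (7.74, 7.21 and 8.40) and Uty (7.93, 7.29 and 8.38) ran in the same order as Ecm1. Xist, from the inactive X chromosome, ran the other way at 10.84, 11.48 and 9.79. The share of male embryos and the medium cannot be told apart with 1 array each.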

How the data were processed

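RNA of kidney explants was hybridised to 3 arrays, 1 per medium, from 250 ng of total RNA per the labels' protocols. The deposited unit is a linear intensity per probe set, which the authors made with Affymetrix Expression Console 1.1 and RMA, per the submitters' processing notes. Neither its settings nor a genome build is stated there.

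Values were taken as log2 of the intensity with no pseudocount. Of 35556 probe sets, 21789 had 1 gene symbol in the platform annotation, 1621 had several and 12146 were unnamed. A gene with several probe sets (999 genes) took the one with the highest mean. With 1 array per medium no p-value was computed. Because RMA sums up probes by median polish, 51.6% of genes had exactly equal values in retinoic acid and serum-free medium, and small differences may be understated. Of the named probe sets, 21698 matched RefSeq by gene ID. The size rule and motif search were tested on simulated data. Alternatives were other scalings (limma 3.58.1), offsets, floors, sizes and probe set rules.

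The gene, the lists and the rule for named genes were chosen with earlier results of these data known. Genes named were Ecm1, its neighbours in rank, pattern and chromosomal place, measured members of the retinoid, partner and TFAP2 lists, and up to 4 members of each other list with the largest differences. Tars2, Mcl1 and the other neighbours fall under that rule, as do Tgfb1 and Tgfb2. Foxd1, Tcf21, Pdgfra, Pdgfrb, Gdnf and Ecm2 were added for their known roles, after values were seen. Fibin also falls outside the rule. The protein sequence of Ecm1 was not analysed here.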

Additional observations from a re-analysis of the deposited data

How the results depend on the processing

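No paired analysis was possible because each medium had 1 array. The Ecm1 differences kept their direction under all 5 scalings and offsets tried. With 32 added to the intensities, retinoic acid minus serum-free was 5.06, further from 5.34 than the probe set disagreement. With the larger offset (4 times 32) added to the intensities they were 4.46 for retinoic acid minus serum-free and -2.08 for serum-free minus serum. Under every alternative run Ecm1 stayed first in these comparisons. For retinoic acid minus serum its rank was 6, and it became 5 under cyclic loess and under quantile normalization, 3 with 32 added, 2 with the larger offset and 4 with the floor at the 75th percentile. Counts of called genes moved by over 1.5 times with the size, floor and larger offset. They are given as higher and lower for retinoic acid minus serum-free, serum-free minus serum, and retinoic acid minus serum, in that order. With the larger offset they were 45 and 19, 35 and 31, and 33 and 31. With the floor at the 75th percentile they were 55 and 26, 40 and 32, and 46 and 40. At 1.5-fold they were 244 and 196, 204 and 210, and 250 and 289. At 4-fold they were 20 and 2, 2 and 10, and 10 and 11. Of the 8 genes nearest by cosine, 5 were kept under cyclic loess. Of 185 alternative list medians, 178 stayed within the probe set disagreement and 7 did not.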

Other observations

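Genes that serum induces within minutes to hours in many cells include those of the AP-1 subunits. Of 16 measured, 2 were called lower without serum, where 0.699% of all genes were, and 0 higher. These were the matricellular genes Ccn2, at 11.03 with serum, 8.98 without it and 8.27 with retinoic acid, and Ccn1, at 10.28, 9.05 and 8.39. Both were lower without serum, as Ecm1 was, and lowest with retinoic acid, where Ecm1 was highest. With retinoic acid against serum-free medium 0 of the 16 were called higher and 0 lower. That is near the shares of 1.05% and 0.613% over genes at or above the floor. The median difference of the 16 was -0.14. Their summed log2 level was 13.35 with serum, 12.93 without it and 12.57 with retinoic acid. Genes of the epidermis, a tissue known for ECM1, had 7 of 7 measured members under the floor on all 3 arrays.

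Ranks refer to genes with a single symbol. Of the 13767 probe sets with several symbols or none, 3809 were at or above the floor in retinoic acid against serum-free medium, and the largest difference among them was 2.94, below that of Ecm1. In serum-free medium against serum the lowest was -1.75. In retinoic acid against serum the largest was 3.93, above that of Ecm1. For retinoic acid against serum-free medium, 14 of these probe sets were called higher and 10 lower. The counts were 148 and 17 of 3800 for serum-free medium against serum, and 101 and 13 of 3765 for retinoic acid against serum. Among single-symbol genes at or above the floor, 0.876% and 0.699% were called in the former, and 1.04% and 0.816% in the latter. The reason for this lean was not tested.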
